A study of Mus musculus with 16 samples.

Results

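Livers of old mice given metformin for 2 consecutive weeks of each month (the 2WM group) were compared with livers of mice on the standard diet (the SD group). Metformin is a biguanide taken for type 2 diabetes. The animals were male C57BL/6 mice obtained at 104 weeks of age and kept on the purified AIN-93G diet, which both groups ate. The 2WM diet carried 1% metformin during the weeks of feeding and the SD diet carried 0%, and RNA was taken after 17 weeks of treatment, when the 2WM mice were on metformin. Livers were collected under ketamine and xylazine from mice that had not been fasted, and neither the hour of collection nor the order of the arrays was used here. The comparison took in 4 of the 4 SD mice and 4 of the 4 2WM mice, 8 of the 13 mice and 10 of the 16 Illumina bead arrays of the series. Mouse 1 of SD and mouse 1 of 2WM had 2 arrays apiece, whose values were averaged. The members described are the 10942 of 25697 probes that stood above background, with detection p-values under 0.05 throughout the arrays of 1 or both groups. They belonged to 7686 named genes, and 642 of the probes had no gene name. All signals below are normalised log2 signals, on which 1 unit is a factor of 2, and where several probes of a gene were detected the brightest stands for it. Each mouse is a separate animal, mice are given in the order 1 to 4 of their labels, and the numbers carry no rank.

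The liver makes cholesterol from acetyl-CoA through mevalonate, farnesyl pyrophosphate, squalene and a series of sterol ring intermediates. When the endoplasmic reticulum runs low in sterol, the transcription factor SREBP-2 is released from its anchor and switches these enzymes on together, with the CCAAT-binding factor NF-Y as a partner at many of their promoters. Sterol-laden hepatocytes use other factors, LXR among them, to switch on the exporters Abcg5 and Abcg8. Interferons act through the JAK kinases and the STAT and IRF factors, which bind a GAAA-rich element before a large set of antiviral genes. Fuel genes such as Pck1 and G6pc are raised by glucagon and cyclic AMP and lowered by insulin in this tissue.

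The promoters below are those of genes on which the sterol and interferon results turn, shown because the known factors of both pathways read short sequences there. They are RefSeq promoters of build GRCm38.p6, searched from 250 bases before to 50 bases after each gene's start, and the 250 bases before the start are printed 5′ to 3′ on the gene's strand, with matches in capitals. The sterol regulatory element was searched as TCACNCCAC, the CCAAT box as CCAAT and the interferon-stimulated response element as GAAANNGAAA, all on both strands. In Hmgcs1 (chr13:119690101-119690350 on the plus strand) the capitals mark the sterol regulatory element.
Hmgcs1: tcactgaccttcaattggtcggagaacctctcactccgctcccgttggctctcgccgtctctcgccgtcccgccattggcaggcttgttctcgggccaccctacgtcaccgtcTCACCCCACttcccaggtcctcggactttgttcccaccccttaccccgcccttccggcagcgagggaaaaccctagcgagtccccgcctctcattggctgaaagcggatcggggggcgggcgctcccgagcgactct
In Idi1 (chr13:8885356-8885605 on the plus strand) and Nsdhl (chrX:72918271-72918520 on the plus strand) the capitals mark CCAAT boxes, each on the opposite strand.
Idi1: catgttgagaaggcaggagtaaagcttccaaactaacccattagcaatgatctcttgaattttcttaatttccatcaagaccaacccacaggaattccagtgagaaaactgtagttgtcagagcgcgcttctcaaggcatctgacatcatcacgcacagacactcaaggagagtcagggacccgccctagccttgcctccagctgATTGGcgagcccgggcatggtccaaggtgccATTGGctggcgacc
Nsdhl: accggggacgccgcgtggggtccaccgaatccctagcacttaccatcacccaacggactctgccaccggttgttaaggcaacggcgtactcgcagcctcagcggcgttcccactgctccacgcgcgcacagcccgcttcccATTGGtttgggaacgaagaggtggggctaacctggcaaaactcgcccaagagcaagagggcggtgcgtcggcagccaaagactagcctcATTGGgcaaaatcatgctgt
In Rsad2 (chr12:26456453-26456702 on the minus strand), Gbp3 (chr3:142559794-142560043 on the plus strand), Isg15 (chr4:156200819-156201068 on the minus strand) and Ifit3 (chr19:34583279-34583528 on the plus strand) they mark the interferon-stimulated response element, whose matches in Gbp3 and Isg15 overlap each other. Isg15 and Ifit3 were picked for display after their values were seen, and all of these interferon promoters were chosen because they hold a match.
Rsad2: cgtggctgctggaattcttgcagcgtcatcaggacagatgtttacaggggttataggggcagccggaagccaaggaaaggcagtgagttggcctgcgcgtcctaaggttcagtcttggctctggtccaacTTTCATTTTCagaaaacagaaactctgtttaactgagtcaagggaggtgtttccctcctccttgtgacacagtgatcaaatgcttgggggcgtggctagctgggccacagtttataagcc
Gbp3: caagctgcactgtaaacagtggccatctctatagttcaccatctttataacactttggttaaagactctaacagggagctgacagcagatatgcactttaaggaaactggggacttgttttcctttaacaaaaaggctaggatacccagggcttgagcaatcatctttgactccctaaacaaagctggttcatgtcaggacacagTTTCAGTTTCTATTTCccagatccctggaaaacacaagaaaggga
Isg15: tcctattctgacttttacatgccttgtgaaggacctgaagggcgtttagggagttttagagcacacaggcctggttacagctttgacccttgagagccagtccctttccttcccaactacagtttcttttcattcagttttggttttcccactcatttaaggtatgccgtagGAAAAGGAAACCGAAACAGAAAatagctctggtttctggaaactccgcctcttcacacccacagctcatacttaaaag
Ifit3: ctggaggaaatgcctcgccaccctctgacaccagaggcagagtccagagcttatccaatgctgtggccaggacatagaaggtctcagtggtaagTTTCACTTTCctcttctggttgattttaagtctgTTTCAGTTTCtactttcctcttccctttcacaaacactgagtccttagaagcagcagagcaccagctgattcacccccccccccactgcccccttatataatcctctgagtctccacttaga
Among 27025 genes with a RefSeq promoter, 1.44% held TCACNCCAC, 41.1% held CCAAT and 3.99% held GAAANNGAAA. Of the 15 cholesterol enzymes tested, 13 had a promoter in the table, of which 1 (Hmgcs1) held TCACNCCAC and 13 held CCAAT. Of the 40 interferon-stimulated genes tested, 29 had a promoter and 17 of these (58.6%) held GAAANNGAAA. A match describes letters in this window, and the lack of one says nothing of the factor.

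The arrays were of like brightness, with median signals of 145.3 to 184.9 and 11541 to 12953 probes detected. The log2 signals of pairs of mice correlated at 0.968 to 0.981 within SD, 0.980 to 0.991 within 2WM and 0.958 to 0.984 between the groups, and the repeat arrays of a mouse at 0.993 and 0.995. The spread between SD mice was the wider, with a median standard deviation of 0.18 per probe against 0.13 in 2WM. SD mouse 4 was the highest SD mouse in 10 of 15 cholesterol genes, and results that move without it are given both ways. Of the 9 hepatocyte markers with a probe, 7 were detected. All 7 were positive, with a median of 0.29 and none called (0.09 under quantile normalization and −0.09 under median centring), and per-mouse list medians, as deviations from the mean of the 8 mice, were −0.38 to 0.18 in SD and −0.10 to 0.28 in 2WM.

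Across the tissue the difference between the groups was small and few probes passed the test. At limma's adjusted p under 0.05, 2 of the 10942 probes were called (0.0183%), both higher in 2WM, 1 for Idi1 and 1 for Nsdhl. No probe was called lower, although 683 were lower at an unadjusted p under 0.05. At that unadjusted threshold there were 1138 probes in all (10.4%), 455 of them higher (4.16%) and 683 lower (6.24%). The share higher was 40.0% here and 7.40% (161 of 2175) when each array was instead centred on its median signal, so the balance of directions rested on the scaling. Median centring moved the median of all genes from −0.02 to −0.12, left 22.5% of genes positive in place of 44.9%, and turned several lists whose medians lie near 0, as given with them. Under the scaling used here, the 2189 brightest probes were 56.9% positive. Dimmer probes, in groups of like size, were 37.8% to 42.5% positive. Among the lists of bright genes were the proteasome (median SD level 11.5), complex I (12.3), complexes II to V (12.9) and hepatocyte markers (14.7). Read by gene, 775 of 7686 (10.1%) had an unadjusted p under 0.05, 339 higher (4.41%) and 436 lower (5.67%), and the median difference was −0.02. All 4 2WM mice lay above all 4 SD mice in 169 genes (2.20%) and below them in 255 (3.32%). The larger differences lay on the higher side, with 37 of the 39 probes that differed by over 1 log2 unit. With 4 mice against 4, an exact permutation test cannot go below a two-sided p of 0.0286, and the median standard error of a probe was 0.12, which gives a 95% interval of 0.26 on either side.

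**Figure D1:**
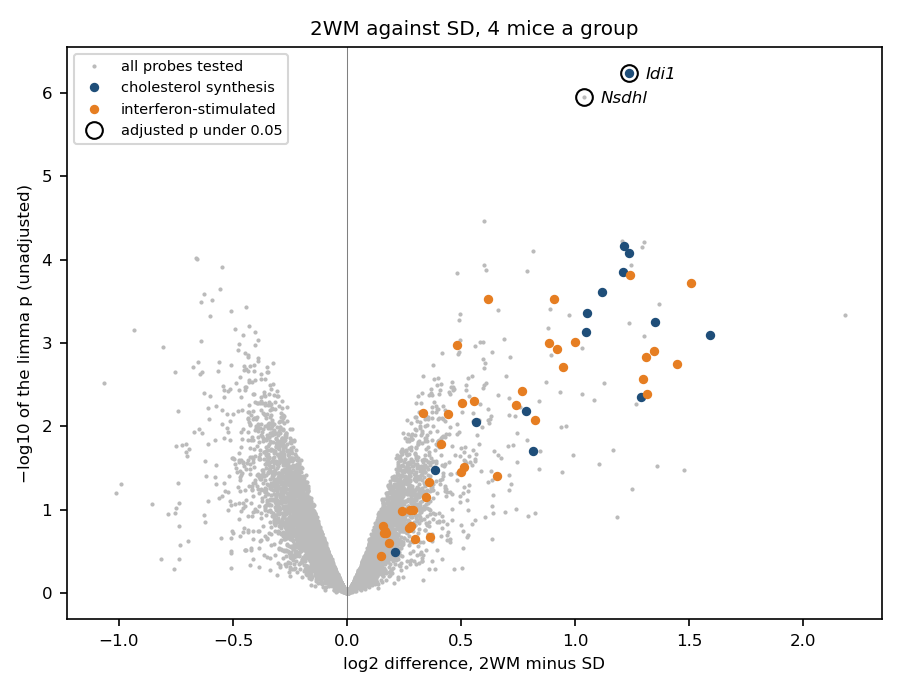
−log10 of limma's unadjusted p (vertical) against the difference 2WM minus SD in log2 units (horizontal) for the 10942 probes tested, with the 15 cholesterol synthesis and 40 interferon-stimulated genes coloured and the 2 called probes, of Idi1 and Nsdhl, circled. All coloured points lie right of 0, while the median of the probes is −0.03.

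The genes that stood apart were those of cholesterol synthesis, 15 of which were detected and all 15 of which were higher in 2WM. Of the 5 mevalonate pathway genes, 5 had an unadjusted p under 0.05 (against 4.41% of all genes higher at that threshold), 3 had no overlap between the groups (against 2.20%) and 1 was called (against 0.0130% of all genes), with a median difference of 1.21. Of the 10 sterol ring enzymes, 9 had an unadjusted p under 0.05, 7 had no overlap and none was called by its brightest probe, with a median of 1.05. The median over all genes was −0.02, and 44.9% of genes were positive. All 15 were positive under median centring too, with medians of 0.99 and 0.87. Deviations of the mevalonate list from the mean of the 8 mice were −0.91, −0.65, −0.84 and −0.06 in SD and 0.85, 0.43, 0.69 and 0.49 in 2WM. Every 2WM mouse thus exceeded every SD mouse, and SD mouse 4 lay closest to them.

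Idi1, the isomerase that makes dimethylallyl pyrophosphate, rose most surely. Its signals were 7.88, 7.80, 8.27 and 8.05 in SD and 9.20, 9.13, 9.31 and 9.31 in 2WM. The groups were far apart and the 2WM mice lay within 0.18 of each other. The difference was 1.24 (SE 0.11, 95% interval 0.99 to 1.49), a 2.36-fold rise with an adjusted p of 0.00607, and the exact permutation p was 0.0286. Hmgcs1, which condenses acetyl-CoA units at the head of the pathway, read 13.20, 13.26, 13.50 and 14.05 in SD and 14.96, 14.43, 14.86 and 14.60 in 2WM. These did not overlap either, but SD mouse 4 came within 0.38 of the lowest 2WM mouse and the adjusted p was 0.0874 for a difference of 1.21 (SE 0.19). Mvd, the mevalonate pyrophosphate decarboxylase, had no overlap at a difference of 1.21 (SE 0.21, adjusted p = 0.0874).

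In Fdps and Pmvk 1 SD mouse reached into the 2WM range. Fdps, the farnesyl pyrophosphate synthase, read 11.80, 12.46, 11.92 and 13.70 in SD and 14.10, 13.54, 13.78 and 13.61 in 2WM. SD mouse 4 lay above 2 of the 2WM mice, and the difference of 1.29 (SE 0.35) had an adjusted p of 0.274. Pmvk, the phosphomevalonate kinase, read 9.11, 9.44, 8.53 and 9.84 against 10.16, 10.08, 10.01 and 9.82, a difference of 0.79 (adjusted p = 0.314). Only SD mouse 4 overlapped, and it exceeded 2WM mouse 4.

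Among the ring enzymes the differences ran from 0.21 to 1.59. Sqle, the epoxidase that opens this branch, read 9.66, 9.74, 10.75 and 11.41 in SD and 12.23, 11.92, 11.99 and 11.78 in 2WM. The SD mice ranged over 1.76 units while the 2WM mice ranged over 0.45, and the difference of 1.59 (3.01-fold, SE 0.34) had an adjusted p of 0.183. Lss, which closes squalene epoxide into lanosterol, was 1.05 higher (adjusted p = 0.177). Cyp51, the lanosterol demethylase, was 1.12 higher (adjusted p = 0.122), and Msmo1, a sterol methyl oxidase, 1.35 higher (adjusted p = 0.156). All 3 had no overlap between the groups.

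Nsdhl removes the carbon that Msmo1 oxidised, and it was read by 4 probes with differences of 1.04 to 1.29. On the called probe the SD mice read 7.90, 8.10, 8.13 and 8.15 and the 2WM mice 9.32, 9.02, 9.06 and 9.04. The difference was 1.04 (SE 0.10, adjusted p = 0.00607), with nearly a whole unit between the groups. The brightest probe of Nsdhl gave 1.23 (SE 0.20, adjusted p = 0.0874), so by gene it was not called. Hsd17b7, its partner reductase, was 1.05 higher with no overlap (adjusted p = 0.139).

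The remaining ring enzymes had smaller differences. Sc5d, the sterol desaturase, read 8.79, 9.35, 9.47 and 9.43 against 9.55, 9.65, 9.96 and 10.13, without overlap, a difference of 0.57 (adjusted p = 0.333). Dhcr7, the final reductase, was 0.82 higher (adjusted p = 0.41) and Ebp, the sterol isomerase, 0.39 higher (adjusted p = 0.453), both with overlap. Tm7sf2, a sterol reductase, differed by 0.21 with an interval of −0.23 to 0.65 that spans 0.

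**Figure D2:**
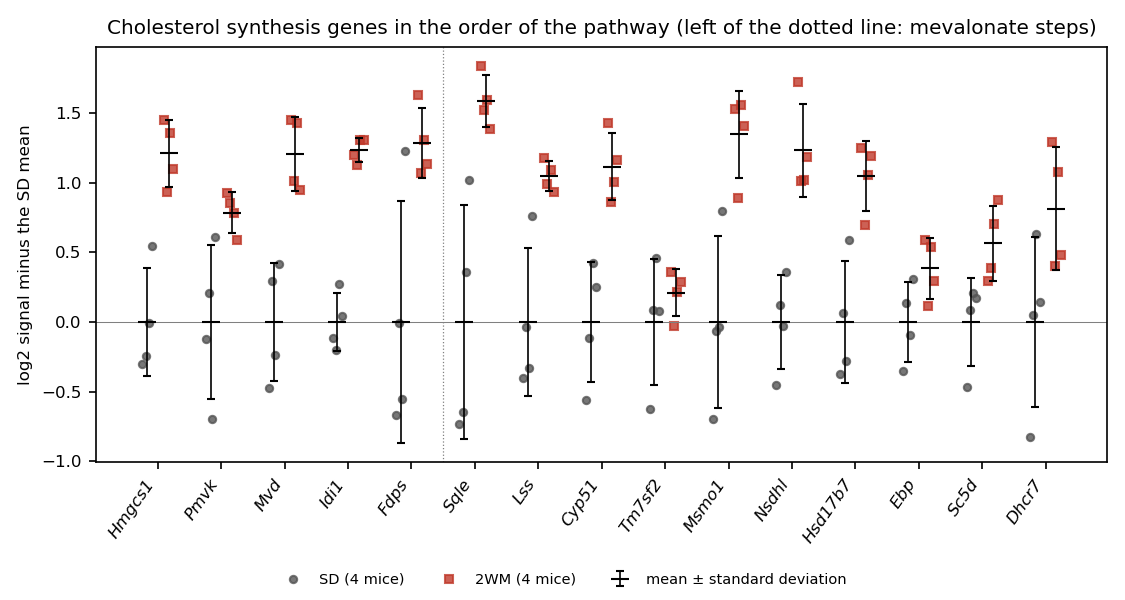
Signal of each mouse minus the SD mean (log2 units) for the 15 detected cholesterol synthesis genes in pathway order, with bars for mean ± standard deviation over 4 mice. The 2WM points of Idi1 lie in a tight band 1.24 above the SD mean, and the SD point nearest to or inside the 2WM points of Fdps and Sqle is SD mouse 4.

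SD mouse 4 weighed on these calls, while leaving out any other single mouse gave 2 or 3 calls. It was singled out after its values were seen, as the highest SD mouse in 10 of the 15 genes. Leaving it out lowers the SD mean of those genes, so smaller p-values there are no separate support. Without it 21 probes were called in place of 2, and among them Hmgcs1 (adjusted p = 0.00901), Mvd (0.0408), Fdps (0.011), Sqle (0.0267), Msmo1 (0.0267), Hsd17b7 (0.0267), Lss (0.00607) and Nsdhl (0.0408) passed by their brightest probes. Its clock genes stood apart as well. The median deviation of 12 detected clock genes was 0.94 in SD mouse 4, against −0.16, −0.03 and −0.14 in the other SD mice and −0.37 to 0.03 in 2WM. The part of the clock genes in the cholesterol values was not tested.

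Genes that sense or move sterol went both ways. Of 9 detected, 6 were positive (against 44.9% of all genes), and the median was 0.21. At an unadjusted p under 0.05, 2 were higher and 2 lower (against 4.41% and 5.67% of all genes). Srebf2, which encodes SREBP-2, read 8.48, 8.51, 8.51 and 8.31 against 8.90, 8.98, 8.96 and 8.58. The groups did not overlap, by a margin of 0.07, and the difference was 0.40 (adjusted p = 0.274). Insig2, a protein that retains the SREBP complex, was 0.42 higher (adjusted p = 0.44) with overlap. Abcg8 and Abcg5 form the pump that sends sterol into bile. Abcg8 read 11.57, 11.54, 11.40 and 12.32 in SD and 10.56, 10.95, 10.61 and 10.98 in 2WM. Every 2WM mouse was below every SD mouse, and the difference of −0.93 (SE 0.19, 1.91-fold lower, adjusted p = 0.172) was the lowest of this list. Abcg5 was −0.61 (adjusted p = 0.325), with 1 2WM mouse inside the SD range.

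Fatty acid synthesis genes, which share SREBP factors with the sterol enzymes, differed less. Of 20 detected, 18 were positive (against 44.9% of all genes). At an unadjusted p under 0.05, 3 were higher and 1 lower (against 4.41% and 5.67%), and none was called. The median was 0.30, which median centring lowered to 0.03 with 11 positive. The list moved with SD mouse 4 too, with 8 higher (and 601 of all 10942 probes higher) and a median of 0.31 without it. Acly, the citrate lyase that feeds cytosolic acetyl-CoA, was 0.67 higher (adjusted p = 0.432), and Acss2, which makes acetyl-CoA from acetate, 0.94 higher (adjusted p = 0.453, with 0.28 on its other probe). Both overlapped at SD mouse 4, whose Acss2 signal of 13.78 lay above 2 of the 2WM mice. Elovl5, an elongase of polyunsaturated fatty acids, was 0.43 higher (adjusted p = 0.363). Mlxipl, the carbohydrate-sensing factor ChREBP, was −0.30 with no overlap (adjusted p = 0.432), and Srebf1, the lipogenic SREBP gene, was −0.52 with an interval of −1.16 to 0.12. Scd1, the stearoyl desaturase, differed by 0.09 (SE 0.15), a sign that turned to −0.13 under quantile normalization.

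Of 12 triglyceride synthesis genes, 10 were negative and 2 positive (against 44.9% of all genes positive), with a median of −0.16. At an unadjusted p under 0.05, 2 were higher and 2 lower (against 4.41% and 5.67%). Dgat2, the last acyltransferase, was −0.36 (adjusted p = 0.412) and Gpat4, an early one, −0.31 (adjusted p = 0.478). The lipins Lpin1 and Lpin2, phosphatases of the same path, lay on the other side. Lpin1 read 7.97, 8.48, 8.40 and 9.68 in SD and 9.54, 9.75, 9.49 and 9.12 in 2WM. Again SD mouse 4 was the lone overlapping SD mouse, and the difference of 0.85 had an adjusted p of 0.409, or 0.0386 without that mouse. Lpin2 was 0.62 higher (adjusted p = 0.472). Plin4, a lipid droplet coat protein, was −0.41 with no overlap (adjusted p = 0.262), against 0.36 for Plin3 and 0.30 for Hilpda (0.06 on its other probe), both with overlap.

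Genes of glucose output and of fasting stood higher in part. Of 10 gluconeogenesis genes, 6 were positive (against 44.9% of all genes), and the median was 0.09 (−0.12 under median centring). At an unadjusted p under 0.05, 3 were higher and 1 lower (against 4.41% and 5.67% of all genes). Pck1, which commits oxaloacetate to glucose, read 8.27, 9.07, 9.28 and 9.09 in SD and 9.87, 10.39, 10.31 and 10.11 in 2WM. The groups did not overlap, and the difference was 1.25 (2.37-fold, SE 0.21, adjusted p = 0.0874). G6pc, the glucose-6-phosphatase, was 0.71 higher (adjusted p = 0.395) with overlap at 1 mouse, and Got1, an aspartate aminotransferase, 0.55 higher (adjusted p = 0.439). Foxo1, a factor that drives both Pck1 and G6pc when insulin is low, lay on the other side, at 8.79, 8.92, 9.004 and 8.64 against 8.39, 8.24, 8.28 and 8.53. It did not overlap, at −0.48 (adjusted p = 0.205).

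Pdk4, which shuts pyruvate out of the mitochondrial citrate cycle, read 8.35, 8.36, 8.30 and 7.88 in SD and 9.04, 9.07, 9.96 and 8.55 in 2WM, a difference of 0.93 without overlap (adjusted p = 0.274). Pfkl, the liver phosphofructokinase, was −0.35 (adjusted p = 0.341), Gckr, the regulator of glucokinase, −0.24 (adjusted p = 0.583) and Eno1b, an enolase, 0.17 (adjusted p = 0.599). The other 9 glycolysis genes had larger p, and the list median was 0.00 (−0.25 under median centring). Angptl8, an insulin-induced regulator of lipoprotein lipase, read 11.26, 11.19, 10.68 and 11.88 in SD and 10.06, 10.09, 9.70 and 10.88 in 2WM. It was the most negative gene difference of all, −1.07 (SE 0.28, adjusted p = 0.268), with 1 2WM mouse above 1 SD mouse. Angptl4, a related inhibitor raised by fasting, was 0.83 higher with an interval of −0.22 to 1.87.

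Of the insulin signalling genes 5 of 12 were positive, close to the 44.9% of all genes, with 1 higher and 3 lower at an unadjusted p under 0.05 (against 4.41% and 5.67%) and a median of −0.18. Pik3r1, the regulatory subunit of the lipid kinase, was −0.52 (adjusted p = 0.346) and Pdpk1, the kinase that activates AKT, −0.33 without overlap (adjusted p = 0.376). Irs2, the hepatic insulin receptor substrate, was 0.56 higher (adjusted p = 0.432). Igfbp1, which binds IGF-1 and is suppressed by insulin, read 8.95, 7.65, 8.28 and 8.15 in SD and 9.08, 10.99, 10.31 and 8.09 in 2WM. Its difference of 1.36 (SE 0.54, adjusted p = 0.44) came from 2WM mice 2 and 3, since 2WM mouse 4 lay inside the SD range. Within the IGF list Igfbp2 (0.17) and Jak2 (0.18, with −0.03 on its other probe) differed less, and of 15 growth hormone axis genes 8 were positive. Socs2, a growth hormone target, differed by 0.09 (SE 0.36).

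**Figure D3:**
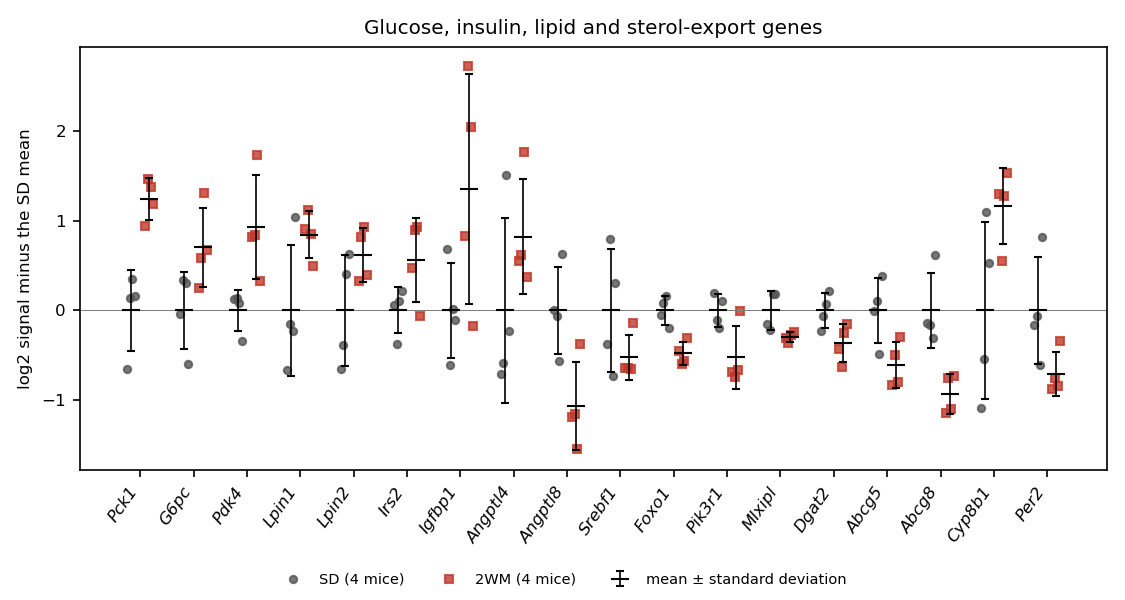
Signal of each mouse minus the SD mean (log2 units) for fuel, insulin and bile genes, with bars for mean ± standard deviation over 4 mice. Pck1 and Pdk4 show 2WM mice clear of SD, Igfbp1 is split among 2WM mice, and Abcg8 and Foxo1 lie below.

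Interferon-stimulated genes were the widest set to stand higher in 2WM. All 40 detected of the 52 with a probe were positive, against 44.9% of all genes. Of these, 26 had an unadjusted p under 0.05 (65.0% in the list, against 4.41% of all genes higher), 14 had no overlap (against 2.20%) and none was called, with a median of 0.50 (1.42-fold). Per-mouse list medians were −0.40, 0.06, −0.33 and −0.50 in SD and 0.37, 0.46, −0.02 and 0.27 in 2WM. The medians did not separate the mice fully, since SD mouse 2 lay above 2WM mouse 3, which was the lowest 2WM mouse in 34 of the 40 genes. Under the other settings the median ran from 0.36, under median centring, to 0.75, under limma's neqc, with 40 of 40 positive in both.

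Rsad2, the antiviral enzyme viperin, read 9.48, 10.35, 10.33 and 9.56 in SD and 11.72, 11.94, 10.92 and 11.18 in 2WM. The groups did not overlap and 2WM mouse 3 was the lowest of its group, at a difference of 1.51 (2.84-fold, SE 0.27, adjusted p = 0.103). Gbp3, a GTPase that attacks intracellular pathogens, read 9.59, 10.34, 9.90 and 9.52 against 11.34, 11.30, 10.55 and 11.10. The same 2WM mouse was again the lowest, and the difference of 1.24 had an adjusted p of 0.0874. Oasl2, of the oligoadenylate synthetase family, differed by 1.45 (adjusted p = 0.231), with 2WM mouse 3 inside the SD range, and its second probe gave 0.36. Ifit2, which binds foreign RNA, was 0.91 higher and Irgm1, an immunity-related GTPase, 0.62 higher, both without overlap (adjusted p = 0.127 for each). The other probe of Ifit2 gave 0.71, and those of Irgm1 gave 0.26 and 0.89. The Oasl2 probe at 0.36 was detected on 3 of 5 SD arrays and the Irgm1 probe at 0.26 on 2 of 5. Both passed the filter only through 2WM, where they were higher, so they are no support.

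Isg15, the ubiquitin-like modifier of this response, read 8.34, 9.47, 9.21 and 8.96 in SD and 10.78, 10.68, 9.45 and 10.46 in 2WM. The overlap was slight, between SD mouse 2 and 2WM mouse 3, and the difference was 1.35 (adjusted p = 0.206). Ifit3, a partner of Ifit2, read 9.71, 10.96, 10.61 and 10.11 against 12.26, 11.92, 11.03 and 11.43, without overlap, a difference of 1.31 (adjusted p = 0.213). All 4 promoters printed for this set hold GAAANNGAAA, as above, because they were chosen for it.

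**Figure D4:**
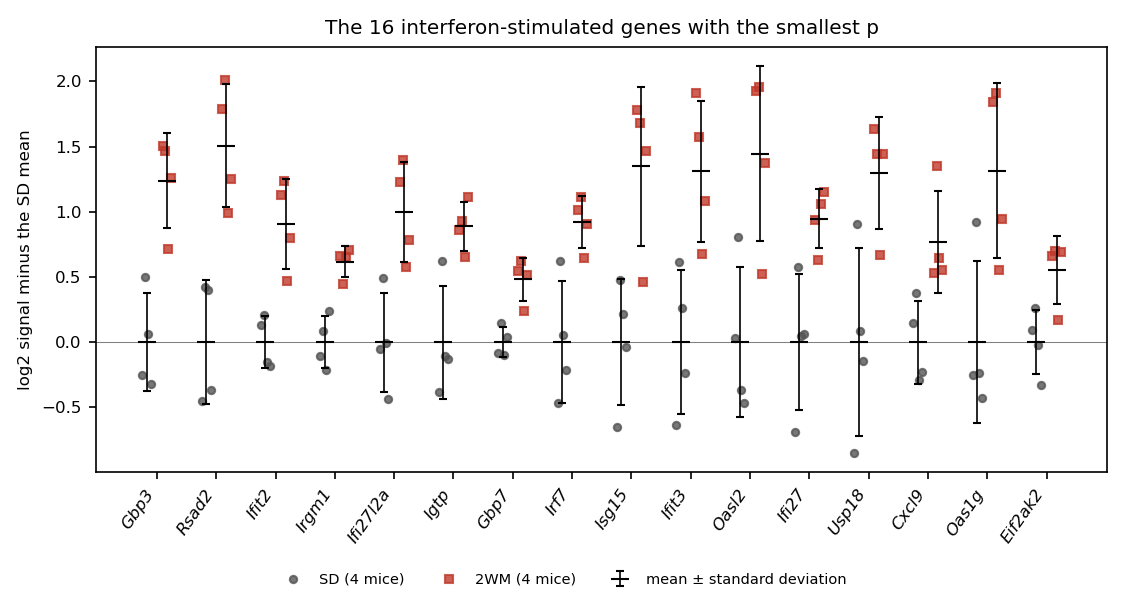
Signal of each mouse minus the SD mean (log2 units) for the 16 interferon-stimulated genes with the smallest p, with bars for mean ± standard deviation over 4 mice. 2WM mouse 3 is the lowest 2WM point in 13 of the 16 genes, and SD mouse 2 is the highest SD point in 15.

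Antigen presentation by MHC class I, which interferon also raises, leaned the same way by less. All 11 genes detected were positive (against 44.9% of all genes), 4 had an unadjusted p under 0.05 (against 4.41%) and 4 lay wholly above SD (against 2.20%), with a median of 0.18 (9 of 11 and 0.08 under median centring). H2-D1, a class I heavy chain, read 9.81, 9.94, 9.67 and 9.53 in SD and 10.36, 10.41, 10.31 and 10.30 in 2WM. It had the smallest p of the set, with a difference of 0.61 (SE 0.10, adjusted p = 0.0874). Probes of class I genes can share sequence with near-identical family members. H2-Q7 (0.45), H2-T23 (0.47) and Nlrc5 (0.24), the last a transactivator of class I genes, had no overlap either, with adjusted p-values of 0.344, 0.427 and 0.461.

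The proteasome, which cuts the peptides that class I presents, had 28 of 31 genes positive (against 44.9% of all genes), 10 higher at an unadjusted p under 0.05 (against 4.41%) and 9 wholly above SD (against 2.20%), at a median of 0.12. This pattern rested on the scaling, since the median was −0.08 when each array was centred on its median signal. Psmd11 (0.42), Psmd8 (0.35), Psmc2 (0.26) and Psmd12 (0.21) had no overlap, with adjusted p-values of 0.299, 0.373, 0.373 and 0.432.

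Markers of blood and liver cell types were read beside these genes. In bulk tissue fewer cells of a type and less RNA per cell cannot be told apart. Of the 17 T and NK cell markers with a probe 8 were detected, 7 positive (against 44.9% of all genes), at a median of 0.14. At an unadjusted p under 0.05, 2 were higher (against 4.41% of all genes). The list medians per mouse ran from −0.28 to 0.16 in SD and −0.05 to 0.17 in 2WM. Cd3d, part of the T cell receptor complex, was 0.30 higher without overlap (adjusted p = 0.424), and Ccl5, a chemokine of activated T cells, 0.54 higher (adjusted p = 0.432). Cd3g differed by 0.35 and Cd5 by 0.16, the last without overlap. Cd5 was detected on 2 of 5 SD arrays and 5 of 5 2WM arrays. It passed the filter only through 2WM, where it was higher, so its lack of overlap is no support.

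Kupffer cell and macrophage markers numbered 11 of 14 detected, 7 positive, none below an unadjusted p of 0.05, with list medians of −0.53 to 0.64 in SD and −0.10 to 0.39 in 2WM. Marco, a scavenger receptor, differed by 0.53, Lyz1 by 0.43 and Lyz2 by 0.49, Ctss by 0.39 and Cd163 by −0.35. Cd163 was detected on 5 of 5 SD arrays and 4 of 5 2WM arrays, so it passed the filter only through SD. MHC class II genes, borne by antigen-presenting cells, had 6 of 8 positive and none below that p, and H2-Aa (0.53), H2-Ab1 (0.28) and H2-Eb1 (0.28) overlapped widely. SD mouse 1 was the highest of all 8 mice for each of these 3 genes. Stellate cell and matrix genes had 14 of 16 positive (against 44.9% of all genes) and a median of 0.21. Of these, 3 were higher at an unadjusted p under 0.05 (against 4.41%). The part of cell makeup in the interferon and class I values was not tested.

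The stress gene Bbc3, which encodes the pro-death protein PUMA, read 9.09, 8.99, 8.86 and 9.44 in SD and 10.03, 9.93, 9.74 and 9.94 in 2WM. It did not overlap, at a difference of 0.82 (adjusted p = 0.0874, or 0.011 without SD mouse 4), although its second probe gave 0.15. Trp53inp1, another p53 target, was 0.55 higher with overlap (adjusted p = 0.255), and 0.60 higher without overlap on its other probe (adjusted p = 0.0874). Ei24 and Cdkn2c were −0.26 each. Of the 12 p53 and senescence genes detected, 4 were positive (against 44.9% of all genes), at a median of −0.03. Gadd45g, a growth arrest gene, differed by 1.11 (adjusted p = 0.439) and by 0.64 on its other probe, and 2WM mouse 3 at 12.68 stood well above the other 2WM mice, at 11.31 to 11.45.

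The amino acid stress response had 10 of 13 genes positive (against 44.9% of all genes), at a median of 0.26. Of these, 2 lay wholly above SD (against 2.20%). These were the tRNA synthetases Nars (0.41, adjusted p = 0.27) and Aars (0.43, adjusted p = 0.329), which are among its targets. Nupr1 (0.26) and Chac1 (0.42), also targets, overlapped.

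The genes lower in 2WM were spread over many functions and none was called. Rnf5, a ubiquitin ligase of the endoplasmic reticulum, read 10.58, 10.89, 10.98 and 10.91 in SD and 10.23, 10.05, 10.26 and 10.18 in 2WM, a difference of −0.66 (adjusted p = 0.0874). Eif4ebp2, a translation repressor that mTORC1 inactivates, read 10.24, 10.43, 10.66 and 10.36 against 9.86, 9.83, 9.67 and 9.70, also −0.66 (adjusted p = 0.0874). Nfatc3, a calcium-dependent factor, read 8.73, 8.49, 8.66 and 8.48 against 7.97, 8.01, 8.14 and 8.05, a difference of −0.55 (adjusted p = 0.0874). All 3 had no overlap, by 0.32 or more.

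The other 6 of the 10 lower genes with the smallest p, beside Abcg8, were read as follows. Gse1 was −0.56, Nme3, a nucleoside diphosphate kinase, −0.59 and Tmem63b, a mechanosensitive channel, −0.64, with adjusted p-values of 0.118 to 0.131. Ddx6, an RNA helicase of P-bodies, was −0.60, Nr2f2, the nuclear receptor COUP-TFII, −0.43 and Dsg2, a desmosomal cadherin, −0.49, with adjusted p-values of 0.141 to 0.172. Ddx6 and Dsg2 had other probes with smaller differences, as small as −0.29 and −0.12. Hsd17b11, a lipid droplet dehydrogenase, was −0.75 without overlap (adjusted p = 0.239), and its smallest probe difference was −0.24. The probes at −0.29, −0.12 and −0.24 were detected on 5 of 5 SD arrays but on 4, 4 and 2 of 5 2WM arrays. They passed the filter only through SD, where they were higher, so they are no support.

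Hepatocyte transcription factors shared this direction. Of 13 detected, 2 were positive (against 44.9% of all genes), at a median of −0.26. At an unadjusted p under 0.05, 5 were lower (38.5% in the list, against 5.67% of all genes). Of the 13, 3 lay wholly below SD (against 3.32%). Nr1h3, which encodes the sterol sensor LXR alpha, was −0.28, Nr5a2, which drives bile acid genes, −0.40, Rxra, the shared partner receptor, −0.27 and Prox1, a factor of hepatocyte identity, −0.67. Nr1h3, Nr5a2 and Rxra had no overlap, and adjusted p-values ran from 0.327 to 0.373 in all 4. The second probes of Nr1h3 and Nr5a2 gave −0.16 and −0.15.

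Genes of the AMPK and mTORC1 kinases, the first of which metformin is known to activate, had 4 of 17 positive (against 44.9% of all genes). Their median was −0.12. At an unadjusted p under 0.05, 3 were lower (against 5.67% of all genes). Prkab1, a regulatory subunit of AMPK, read 10.15, 10.25, 10.17 and 10.23 against 10.04, 9.92, 9.91 and 9.84. It did not overlap, at −0.28 (adjusted p = 0.325). Prkaa2, a catalytic subunit, was −0.46 and Tsc2, a brake on mTORC1, −0.25, both with overlap, and Eif4ebp1, related to Eif4ebp2, was 0.29. The only metformin transporter detected, Slc47a1, differed by −0.02 (interval −0.31 to 0.26) on its brightest probe and by −0.34 and −0.29 on its other probes (adjusted p = 0.447 and 0.535).

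Clock genes had 4 of 12 positive (against 44.9% of all genes) and 2 lower at an unadjusted p under 0.05 (against 5.67%). Per2, a repressor of the clock, read 9.37, 9.47, 8.92 and 10.35 in SD and 8.66, 8.77, 8.68 and 9.18 in 2WM, and Usp2, a clock-controlled protease, 7.59, 7.97, 7.67 and 8.80 against 7.38, 7.43, 7.42 and 7.51. SD mouse 4 was the highest in both. The differences were −0.71 (adjusted p = 0.413) and −0.57 (adjusted p = 0.439), and Per1 (−0.50) and Bhlhe40 (−0.37) overlapped. Usp2, counted among the 2 lower genes, was detected on 5 of 5 SD arrays and 2 of 5 2WM arrays. It passed the filter only through SD, where it was higher, so its difference is no support. Without SD mouse 4 the median of the clock list went from −0.21 to 0.03.

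Genes raised by glucocorticoids had 4 of 12 positive (against 44.9% of all genes). At an unadjusted p under 0.05, 1 was higher and 3 lower (against 4.41% and 5.67%). Mt1, a zinc-binding metallothionein, read 12.42, 12.24, 14.04 and 13.70 in SD and 12.75, 12.70, 11.50 and 11.49 in 2WM, a difference of −0.99 (adjusted p = 0.478). Both groups were split into a lower and a higher pair, and 2WM mice 1 and 2 lay above SD mice 1 and 2. Dusp1, a MAP kinase phosphatase, was −0.65 without overlap (adjusted p = 0.349), and Tsc22d3, an anti-inflammatory glucocorticoid target, −0.35 (adjusted p = 0.439).

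Proteins of the acute phase showed no common direction, with 10 of 21 genes positive (against 44.9% of all genes). At an unadjusted p under 0.05, 2 were higher and 3 lower (against 4.41% and 5.67%). The median was 0.00 (−0.20 under quantile normalization, and −0.38 with 0 of 21 positive under median centring). The serum amyloid genes were lower. Saa4, the constitutive member, read 12.28, 12.41, 12.77 and 11.97 in SD and 11.69, 11.18, 11.51 and 11.82 in 2WM, a difference of −0.81 without overlap (adjusted p = 0.199). Saa1 (−0.74, adjusted p = 0.472) and Saa3 (−0.62, adjusted p = 0.461) overlapped. Cp, the copper carrier ceruloplasmin, was 0.30 higher without overlap (adjusted p = 0.296).

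Bile acid genes had 7 of 15 positive and a median of 0.00 (−0.14 under median centring). Cyp8b1, which directs synthesis to cholic acid, read 11.25, 11.79, 13.43 and 12.86 against 13.64, 12.88, 13.61 and 13.87. The SD mice ranged over 2.18 units, and the difference of 1.17 had an adjusted p of 0.409. Abcb4, which moves phospholipid into bile, was 0.31 higher without overlap (adjusted p = 0.327). Cyp27a1 (0.35) and Abcc2 (−0.26), a sterol hydroxylase and a conjugate pump, overlapped.

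The cytochrome P450 genes of drug metabolism had 9 of 22 positive, none higher and 4 lower at an unadjusted p under 0.05 (against 5.67% of all genes), at a median of −0.08. Cyp2d13 read 9.28, 9.17, 9.34 and 9.22 against 8.67, 8.73, 8.76 and 9.05 and did not overlap, at −0.45 (adjusted p = 0.206). Cyp2d40 (−0.72), Cyp3a25 (−0.35) and Cyp3a13 (−0.24, no overlap) had adjusted p-values of 0.394 to 0.462. P450 genes of one family can be alike in sequence, so that a probe may read more than 1 of them.

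Genes of respiration were positive by small amounts. Complexes II to V had 28 of 37 positive, against 44.9% of all genes and 56.9% of the 2189 brightest probes. At an unadjusted p under 0.05, 6 were higher (against 4.41%). Their median was 0.15, which was 0.05 under quantile normalization and −0.19 under median centring. Complex I, the complex that metformin is known to inhibit, had 23 of 37 positive and a median of 0.08. Under median centring 2 of 37 were positive, with a median of −0.19. At an unadjusted p under 0.05, 2 complex I genes were higher in the main scaling (against 4.41% of all genes). Atp5a1, the alpha subunit of ATP synthase, read 11.63, 11.36, 11.27 and 11.49 in SD and 11.91, 11.91, 12.12 and 11.75 in 2WM, a difference of 0.49 without overlap (adjusted p = 0.207). Uqcrh (0.30), Cycs (0.43, with 0.05 on its other probe) and Atp5l (0.24) followed, with adjusted p-values of 0.353 to 0.461, and under median centring Uqcrh and Atp5l turned to −0.055 and −0.044.

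In the citrate cycle and its shuttle 15 of 20 genes were positive (against 44.9% of all genes), at a median of 0.07 (−0.13 under median centring). At an unadjusted p under 0.05, 3 were higher (against 4.41%). Idh2, the mitochondrial isocitrate dehydrogenase, read 11.40, 11.08, 10.93 and 11.54 against 11.68, 12.05, 12.01 and 11.59, a difference of 0.60 without overlap (adjusted p = 0.274). Mdh1, the cytosolic malate dehydrogenase, was 0.46 higher without overlap (adjusted p = 0.274), with 0.27 on its other probe. Idh1, the cytosolic form, was 0.23 higher (adjusted p = 0.478) and Dld 0.24.

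**Figure D5:**
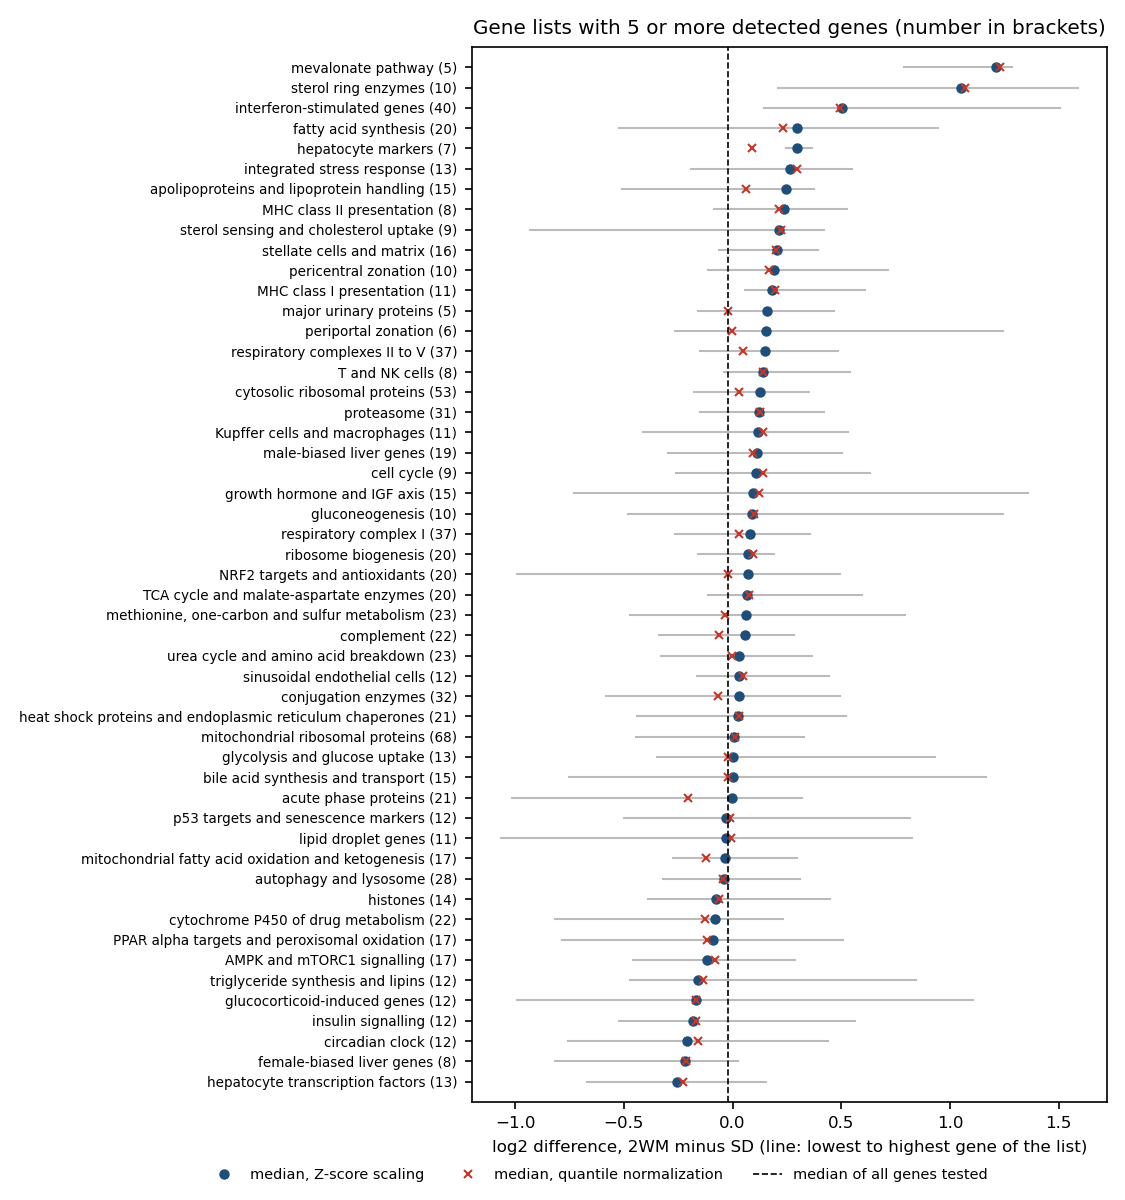
Median difference (2WM minus SD, log2 units, horizontal) of each gene list with 5 or more detected genes under the Z score scaling used here (circles) and under quantile normalization (crosses), with lines from the lowest to the highest gene and the median of all genes dashed. The mevalonate (1.21), sterol ring (1.05) and interferon (0.50) lists lie farthest to the right under both scalings, and the hepatocyte transcription factors (−0.26) farthest to the left.

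Genes of male liver pattern varied more within groups than between them. Of 19 male-biased genes 13 were positive (4 under median centring), none had an unadjusted p under 0.05, and the per-mouse list medians were −0.65, 0.21, 0.55 and −0.25 in SD and 0.16, −0.91, 0.35 and 0.46 in 2WM. SD mouse 1 and 2WM mouse 2 were the lowest. Hsd3b5, a male-specific steroid enzyme, read 8.10, 11.17, 12.72 and 9.05 in SD and 10.49, 7.34, 10.52 and 12.50 in 2WM, a range of over 4 units in both groups. Its difference was −0.05 (SE 1.14). Mup5 (0.01, SE 0.37) and Mup2 (0.36, SE 0.22), major urinary proteins with near-identical relatives, were lowest in 2WM mouse 2 within 2WM. Dio1, the thyroid hormone deiodinase, differed by −0.45 (interval −1.37 to 0.47), and Ppargc1a, a coactivator of mitochondrial genes, by 0.07 (interval −0.28 to 0.42).

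Some of the largest differences came from uneven mice. Chrna4, a nicotinic receptor subunit, read 8.43, 9.15, 7.68 and 10.73 in SD and 10.73, 11.05, 10.93 and 9.18 in 2WM, a difference of 1.48 (SE 0.60, adjusted p = 0.453) with SD mouse 4 as high as a 2WM mouse and 2WM mouse 4 inside the SD range. The erythroid genes Hba-a1, a globin, and Alas2, of red cell heme synthesis, differed by −0.85 and −0.74 with intervals that span 0.

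The other schedule of the study, metformin in every other week (EOW, 5 mice), was scaled together with these 8 mice, and its values share the SD mice. The 2WM and EOW groups differed in 0 of 10942 probes at limma's adjusted p under 0.05 and in 1150 (10.5%) at an unadjusted p under 0.05. The mevalonate list had a median of 0.80 in EOW minus SD and 1.20 in 2WM minus SD, and the ring enzymes 0.75 and 1.04. For the interferon list these were 0.05 and 0.50, and the direct 2WM minus EOW median was 0.38, with 37 of 40 positive and 16 at an unadjusted p under 0.05. Rsad2 ranged from 8.73 to 10.35 in EOW, and 2WM minus EOW was 1.66 (interval 0.92 to 2.39, adjusted p = 0.246). Sc5d was −0.76 in EOW minus SD and 0.56 in 2WM minus SD, and the direct difference of 1.33 had an adjusted p of 0.246. Mt1 was −1.99 in 2WM minus EOW (adjusted p = 0.263), and Idi1 0.54 (adjusted p = 0.279). The other interferon and cholesterol genes compared in this way had larger adjusted p-values. Rsad2, Sc5d, Mt1 and Idi1 were named for having the smallest p in this comparison. Several fuel and lipid differences were as large or larger in EOW. In EOW minus SD and 2WM minus SD, Pck1 was 1.34 and 1.24, and Igfbp1 1.82 and 1.35. Angptl8 was −1.32 and −1.06, Saa4 −0.95 and −0.80, and Sqle 1.58 in both. The gluconeogenesis list had medians of 0.29 and 0.09.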

How the data were processed

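Liver RNA was labelled by in-vitro transcription and hybridised to Illumina bead arrays. The authors deposited a probe intensity for each array, with no normalization stated. The detection p-value deposited beside it is measured against background beads. A Z score per probe and array was deposited by the authors as well, which equals the Z score of the log2 intensity within 0.00011. Per the labels, GenomeStudio 2011.1 was used.

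Intensities were taken to log2, brought to a Z score within each array as in the study's methods, rescaled to the average standard deviation over the 10 arrays and shifted to their mean. The arrays of a mouse were averaged. Groups were taken from sample titles, and no column was left unmapped (0). Groups were compared by the lmFit and eBayes functions of limma 3.58.1 under R 4.3.3, with Benjamini-Hochberg adjustment over all 10942 probes at 0.05, and every adjusted p in the text is limma's. Counts by gene use those same p-values. No set test was run on lists. Probes were named from the platform annotation, in which 23978 probes had 1 gene symbol, 0 had several and 1719 had none, and the gene numbers of 23962 were found in the RefSeq table. The number of mice limits the precision. Brightness was used to pick the probe of a gene and to group probes, and no gene's level was read against another's. Extraction and array batches are not given in the sources used here.

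Genes named were, by rule, the 10 higher and 10 lower with the smallest p and no overlap, the 5 in each direction with the largest difference at an unadjusted p under 0.05, up to 4 of the smallest p in each described list, every cholesterol synthesis gene, and genes the study names. The comparison, its 58 gene lists and this rule were chosen with earlier results of these data known, so no list is independent evidence. Alternatives changed the background correction, scaling, filter, samples, repeat arrays and variance model. Steps were tested on simulated data.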

Additional observations from a re-analysis of the deposited data

Results flagged for a closer look

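In the 278 groups of 4 mice behind the 139 named genes, 17 held a mouse whose distance to the nearest other mouse was, as a share of the group's range, over Dixon's 95% critical value. Chance flags about 1 group in 20. SD mouse 4 gave 4 of them, being low in Srebf2 (8.313), Pdk4 (7.878) and Psmd11 (9.534) and high in Eif4ebp1 (11.83). SD mouse 1 gave 3, being low in Gckr (9.917), H2-T23 (12.38) and Mup2 (13.92). SD mouse 3 was low in Nlrc5 (8.695) and high in Idh1 (12.9). Of the 2WM mice, mouse 2 was low in Cyp27a1 (12.94), Mup2 (14.04) and Slc47a1 (12.65). 2WM mouse 4 was high in Pik3r1 (10.69) and Srebf1 (9.957). 2WM mouse 3 was high in Cyp2d40 (10.97) and Gadd45g (12.68), and 2WM mouse 1 was high in Cd5 (7.612). All of these are normalised log2 signals.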

How the results depend on the processing

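The 2 calls became 0 with all 3 groups in 1 fit (Idi1 at an adjusted p of 0.0622), 5 with first arrays only, 25 with array weights, 1 over genes in place of probes and 287 by the study's criteria. Leaving out 1 mouse gave 2 to 21 calls, the 21 without SD mouse 4, and 820 to 1695 probes at an unadjusted p under 0.05. Those probes, 1138 here, numbered 2175 under median centring, 2114 with no filter, 652 with 3 groups and 1756 with array weights. Other settings kept both counts within 1.5 times. With the replicate block 3 probes were called, 1 of them shared with the unblocked calls, and 1024 were under 0.05. Deviations of same-numbered mice correlated at −0.38, −0.03, 0.33 and 0.02, so the numbers did not pair the mice. Idi1 had an adjusted p of 0.0011 to 0.0622 over its 22 alternatives. Of 139 named genes, 126 kept their direction in every alternative. Under median centring the signs turned for Cp (−0.044), Igfbp2 (−0.077), Psmc2 (−0.0077), Uqcrh (−0.055), Atp5l (−0.044), Idh1 (−0.054), Mup2 (−0.015), Scd1 (−0.29), Mup5 (−0.31) and Socs2 (−0.069). Scd1 was −0.13 under neqc and under quantile normalization, and Mup5 −0.10 and −0.095, with −0.023 on second arrays. Array weights turned Hsd3b5 (0.053) and Slc47a1 (0.018). Leaving out SD mouse 1 and 2WM mouse 2 together, chosen after seeing the data, turned Hsd3b5 (0.19) and Ppargc1a (−0.012). Without 1 mouse at a time Scd1 ran from −0.0067 to 0.19, Hsd3b5 from −0.81 to 0.91, Mup5 from −0.19 to 0.46, Ppargc1a from −0.023 to 0.20, Socs2 from −0.20 to 0.37 and Slc47a1 from −0.12 to 0.069. The causes were not tested.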

Other observations

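The largest difference of any probe was 2.18, for 1 of 3 probes of Chmp7, a member of the ESCRT-III complex, and it was picked after its values were seen. Its SD mice read 9.16, 7.68, 8.20 and 7.68 and its 2WM mice 10.79, 9.10, 11.04 and 10.53, with an adjusted p of 0.139. The repeat arrays of SD mouse 1 differed by 2.70 on this probe and those of 2WM mouse 1 by 2.32, while the other Chmp7 probes gave differences of 0.02 and 0.05 between the groups. Only 6 of 10942 probes had repeat arrays that differed by over 1 unit in either mouse.

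SD mouse 1 and 2WM mouse 2 deviated from their group means together, with a correlation over probes of 0.51. They were the lowest mice in the male-biased genes (list medians of −0.65 and −0.91) and the highest in Kupffer cell markers (0.64 and 0.39). With both left out, 3 probes were called and 1089 had an unadjusted p under 0.05.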
